A study of Mus musculus with 16 samples.

Results

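Genes of the endoplasmic reticulum (ER) and of its response to unfolded protein were followed in mouse lung. They were Hspa5, Pdia4, Pdia6, Dnajb9, Sdf2l1, Creld2, Hyou1, Sec61b, Ddit3 and Herpud1, and every array probe annotated with one of these symbols was taken. Of the 10 genes, 9 had a probe, against 16593 genes on the array in all. Sdf2l1 had none, so that its expression is not analysed here. The 9 genes had 14 probes, and 13 of these were bright enough to be tested, at least 1 for each gene. The other was a second probe of Dnajb9, ILMN_1248003, at or below the 40th percentile of its array in all 16 mice.

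Lung RNA of 16 C57BL/6N mice, all female, was measured on Illumina bead arrays with 1 mouse on each. Wild type and Prdm11 knockout mice were each studied untreated and after challenge with ovalbumin (OVA), in 4 groups of 4 mice. OVA, from egg white, is a common model allergen of the airways. Challenged mice had received 10 µg OVA in 2 mg alum into the peritoneum and later 3 exposures of 30 min to an aerosol of 1% OVA. The untreated groups were sampled at 22 weeks of age and the challenged groups at 35, and the effects of age and of challenge cannot be told apart. The labels give untreated mice no treatment and do not say whether they had been sensitised. The labels name the knockout without its allele or tissue of deletion, and 0 probes were annotated as Prdm11, so that genotype rests on the labels.

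Secreted and membrane proteins enter the ER through the Sec61 channel and are folded there by chaperones and disulfide isomerases. Proteins that fail to fold are returned to the cytosol and degraded. When unfolded protein accumulates, the sensors IRE1, PERK and ATF6 start the unfolded protein response: ATF6 and XBP1 raise the chaperones and the degradation machinery, and PERK acts through ATF4 on genes that include Ddit3, which encodes CHOP. In lung, alveolar type 2 cells, mucous airway cells and plasma cells carry a heavy load of secreted protein.

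Promoter sequences are shown because these elements are known to tie such genes to that response. The ER stress response element (ERSE, CCAAT and CCACG with 9 bases between them) and its short form (ERSE-II, ATTGG and CCACG with 1 base between them) are known sites of ATF6 and XBP1 action. The 250 bases before the start of each gene were searched on both strands, with RefSeq sequences of build GRCm38.p6, where 9 of the 10 genes, Sdf2l1 included and Hyou1 not, had an entry. ERSE was found upstream of Hspa5, Pdia6 and Creld2 and ERSE-II upstream of Herpud1. Among 32851 promoters of that length, 0.113% held ERSE and 0.0304% ERSE-II. Both contain the CCAAT box, which alone is found in 33.8% of these promoters. The UPRE core TGACGTGG, in 0.563% of promoters, and the ATF4-type element TGATGNAAT, in 0.816%, were not found in the 9 windows. The printed sequences belong to the genes that hold an element and to Ddit3, on which the results turn. Capitals mark the fixed bases of ERSE or ERSE-II, and Creld2 holds ERSE on the opposite strand.
Hspa5, chr2:34771840-34772089, plus strand: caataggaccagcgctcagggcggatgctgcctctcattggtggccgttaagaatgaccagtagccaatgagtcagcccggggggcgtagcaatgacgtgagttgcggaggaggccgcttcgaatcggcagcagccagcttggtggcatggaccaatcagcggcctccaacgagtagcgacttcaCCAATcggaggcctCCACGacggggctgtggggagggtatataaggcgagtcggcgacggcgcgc
Pdia6, chr12:17266339-17266588, plus strand: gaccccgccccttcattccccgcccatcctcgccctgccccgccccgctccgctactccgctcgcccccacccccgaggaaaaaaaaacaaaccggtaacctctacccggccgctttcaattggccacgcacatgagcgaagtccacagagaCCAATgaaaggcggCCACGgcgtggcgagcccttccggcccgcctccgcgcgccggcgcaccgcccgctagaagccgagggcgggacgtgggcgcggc
Creld2, chr15:88819396-88819645, plus strand: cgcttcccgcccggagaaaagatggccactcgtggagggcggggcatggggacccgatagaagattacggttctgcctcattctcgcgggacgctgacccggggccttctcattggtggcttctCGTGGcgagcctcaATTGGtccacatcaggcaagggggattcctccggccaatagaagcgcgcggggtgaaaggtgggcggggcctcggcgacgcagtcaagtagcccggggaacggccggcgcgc
Herpud1, chr8:94386179-94386428, plus strand: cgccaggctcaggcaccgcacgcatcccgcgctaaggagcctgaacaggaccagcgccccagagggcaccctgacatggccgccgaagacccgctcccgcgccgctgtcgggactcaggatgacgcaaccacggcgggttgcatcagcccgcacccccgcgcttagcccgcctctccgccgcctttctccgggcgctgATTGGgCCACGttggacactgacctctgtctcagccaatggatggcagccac
Ddit3, chr10:127290543-127290792, plus strand: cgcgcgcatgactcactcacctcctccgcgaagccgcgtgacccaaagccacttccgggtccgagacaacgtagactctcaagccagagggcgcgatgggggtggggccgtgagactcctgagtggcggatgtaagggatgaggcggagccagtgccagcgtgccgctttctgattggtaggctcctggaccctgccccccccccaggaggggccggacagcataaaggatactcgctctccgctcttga
A match describes these letters only. The absence of a match in Ddit3 says that the searched letters do not occur in its window.

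Intensities are given as deposited, on a linear scale, and differences as log2 differences ± SE from a limma fit over all 16 arrays and 17810 tested probes. Adjusted p-values are Benjamini-Hochberg values over all 17810 probes, and a probe is called at an adjusted p under 0.05. Levels are not compared between probes. Array medians lay between 85.4 and 86.5, and the 40th percentile, used as a gauge of background, between 75.4 and 76.2. Challenged wild type replicate 4 stood apart, correlating with the remaining arrays at r = 0.676 to 0.842, against at least 0.877 within any pair of those. Results that rest on it are also given without it. The list of alveolar type 2 cells, a cell type of lung, was measured for 11 of 11 genes. Its mean log2 was 11.73 ± 0.05 (SD) in untreated wild type mice.

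Markers of cell types moved with challenge. The mean log2 over 13 tested goblet cell genes was 6.98 to 7.49 in untreated and 8.04 to 8.998 in challenged wild type mice, and 7.02 to 7.49 and 8.28 to 9.23 in the knockout. For 12 plasma cell genes the corresponding ranges were 6.999 to 7.18, 7.25 to 8.09, 6.99 to 7.22 and 7.31 to 8.03. For 18 skeletal muscle genes they were 8.78 to 9.60, 8.91 to 11.74, 9.23 to 9.96 and 11.23 to 11.94. The goblet and plasma cell ranges of challenged mice thus lay above those of untreated mice in each genotype, while the muscle range overlapped in the wild type. Of 16 cardiac muscle genes, 6 were called higher with challenge in the wild type and 8 in the knockout, with 0 lower. Of 8 fat genes these counts were 1 and 3, with 0 lower. Over all 12648 genes, 1 probe each, 13.4% were called higher and 17.4% lower in the wild type. In the knockout the shares were 10.2% and 7.88%. The fat share in the wild type, 12.5% higher, was thus below that of all genes. Called higher with challenge were 9 goblet, 5 plasma cell and 12 skeletal muscle genes in the wild type and 11, 5 and 17 in the knockout. Called lower in each genotype were 0 goblet, 1 plasma cell and 0 skeletal muscle genes.

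Markers were also compared between the genotypes after challenge, where 20.4% of all genes were called higher in the knockout and 24.3% lower. Of the skeletal muscle genes, 18 of 18 had a positive difference of knockout from wild type (median 1.03) and 6 were called higher (33.3%). Of the cardiac muscle genes 5 were higher and 1 lower (31.2% and 6.25%, median 0.81). Counts for the goblet genes were 3 and 0 (23.1% and 0%), for the plasma cell genes 1 and 3 (8.33% and 25%). For the fat genes they were 0 and 1 (0% and 12.5%). The goblet, plasma cell and fat shares were thus near or below those of all genes. Of the alveolar type 2 genes 2 were higher and 4 lower (18.2% and 36.4%, median -0.39). The type 2 mean was 11.39 to 11.67 in challenged wild type mice, and in challenged knockout mice 11.46, 11.82, 10.30 and 11.39, so that knockout replicate 3 stood lowest. The mean of 8 alveolar macrophage genes was 8.73, 8.41, 8.59 and 7.94 in challenged wild type and 8.57, 8.76, 7.73 and 8.54 in challenged knockout mice, lowest in wild type replicate 4 and knockout replicate 3. Without challenged knockout replicate 3 the difference of knockout from wild type was -1.22 (adjusted p = 0.00256) and -0.92 (adjusted p = 0.00275) for the Ddit3 probes and -0.60 (adjusted p = 0.0115) and -0.47 (adjusted p = 0.0367) for the Creld2 probes described later. For Hspa5 it was 0.73 (adjusted p = 0.0293) and for Hyou1 0.31 (adjusted p = 0.0726). The part of these markers in the results was not tested, and in whole lung a change in the number of cells of a type and a change in RNA per cell cannot be told apart.

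**Figure D1:**
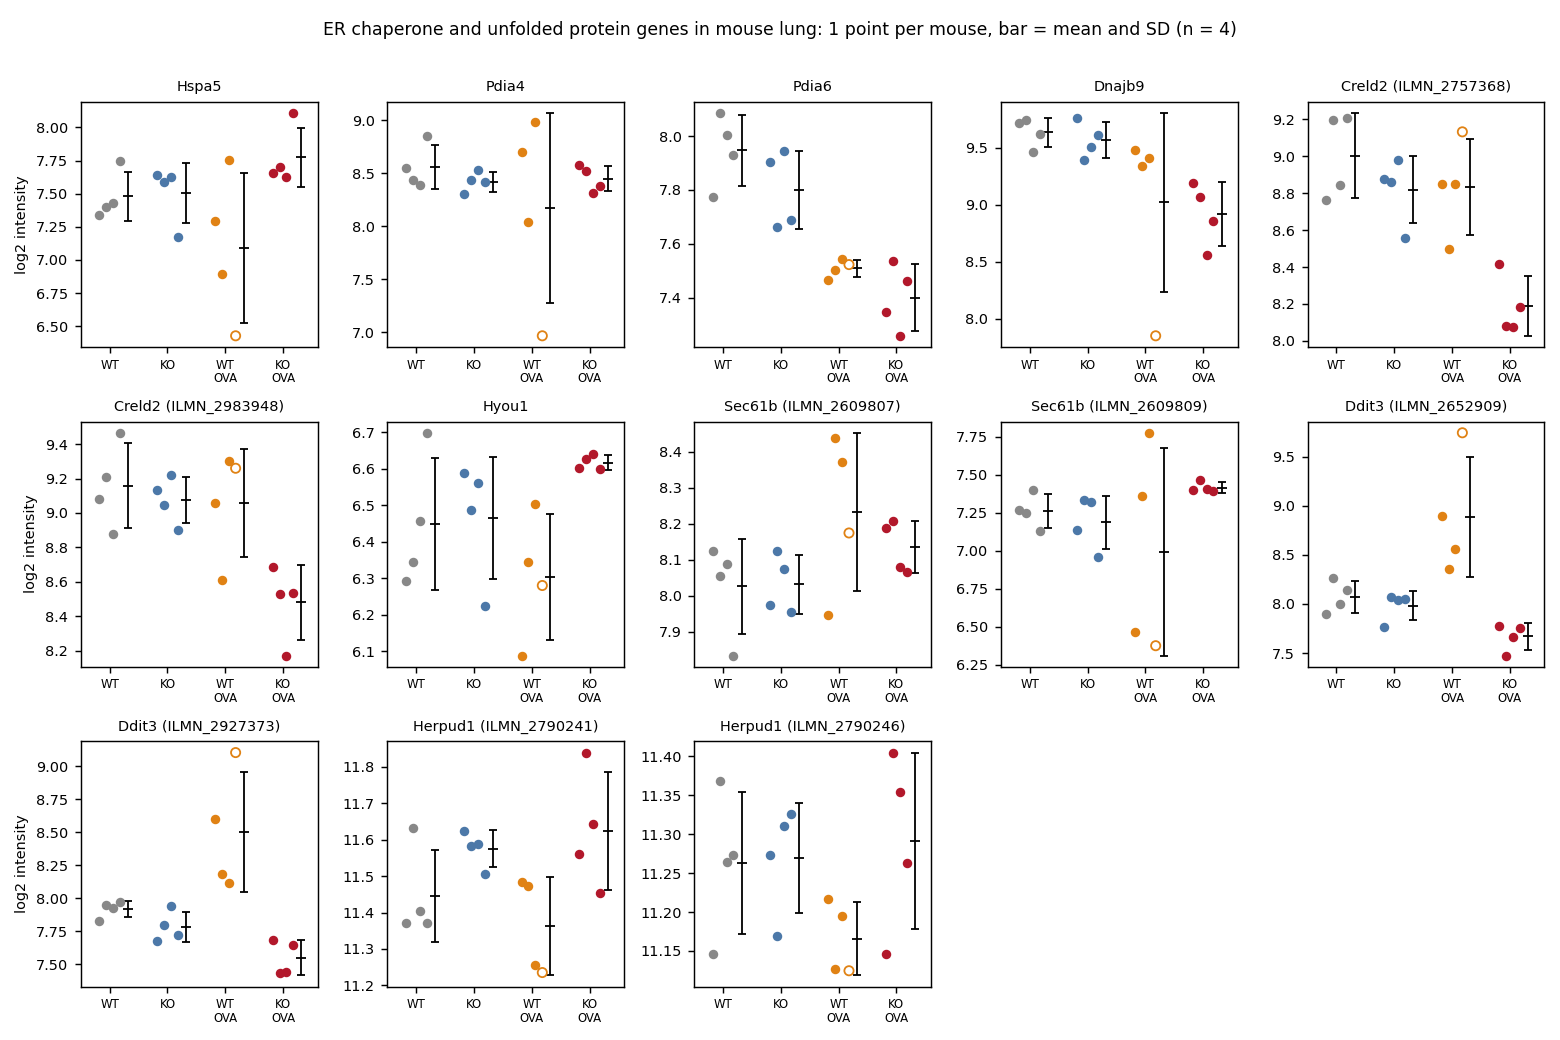
Log2 intensity of the 13 tested probes in each mouse, by group (WT wild type, KO Prdm11 knockout, OVA challenged), with the mean and SD of 4 mice as a bar; each panel has its own axis, and the open circle is challenged wild type replicate 4. Ddit3 lies highest in the challenged wild type, Creld2 lowest in the challenged knockout, and Pdia6 lower in both challenged groups than in the untreated groups.

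Ddit3 encodes CHOP, the transcription factor at the end of the PERK branch and a promoter of cell death under lasting ER stress. It was the member with the largest difference between the genotypes after challenge. Its probe ILMN_2652909 read 238, 308, 256 and 282 in the 4 untreated wild type mice and 217, 269, 263 and 266 in the 4 untreated knockout mice. After challenge it read 477, 327, 377 and 856 in the wild type and 219.8, 178, 203 and 217 in the knockout. All challenged wild type mice lay above all untreated wild type mice, and all challenged knockout mice lay below all challenged wild type mice. Challenge raised this probe in the wild type by 0.81 ± 0.22, or 1.76-fold (limma, adjusted p = 0.0127). In the knockout the challenge difference was -0.31 ± 0.22 and was not called (adjusted p = 0.373). Between challenged mice the difference of knockout from wild type was -1.22 ± 0.22, a level 2.33-fold lower (adjusted p = 0.00092).

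The second Ddit3 probe, ILMN_2927373, gave the same order. It read 389, 292, 277 and 551 in challenged wild type and 206, 172, 173 and 199.8 in challenged knockout mice, again without overlap, and between 205 and 251 in untreated mice. Challenge raised it in the wild type by 0.58 ± 0.17 (adjusted p = 0.0183, and 0.0527 without untreated wild type replicate 1). In the knockout the challenge difference was -0.23 ± 0.17 (adjusted p = 0.387). The difference of knockout from wild type was -0.95 ± 0.17 after challenge (adjusted p = 0.000851) and -0.13 ± 0.17 in untreated mice (95% interval -0.49 to 0.22). The probes correlated at r = 0.978 over the 16 arrays, which they share. The interaction (knockout challenge effect less the wild type one) was called for both, at -1.12 ± 0.31 (adjusted p = 0.0368) and -0.82 ± 0.24 (adjusted p = 0.0441). They were the only member probes called there. The interaction call was lost when any of 11 arrays for the former probe and any of 13 for the latter was left out, untreated wild type replicates 1 to 3 among them (adjusted p as high as 0.0841 and 0.093). Over all 16 fits, called or not, the estimates were -1.30 to -0.84 and -0.95 to -0.62. Cyclic loess gave -1.31 (adjusted p = 0.0698) and -1.02 (adjusted p = 0.0906), neither called.

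Challenged wild type replicate 4 held the highest Ddit3 value on both probes. Without it the challenge effect in the wild type fell to 0.53 ± 0.13 and 0.38 ± 0.12 and was still called (adjusted p = 0.00731 and 0.0223). The genotype difference after challenge was then -0.93 ± 0.13 and -0.75 ± 0.12 (adjusted p = 0.000125 and 0.000245), and the interaction -0.84 ± 0.18 and -0.62 ± 0.16 (adjusted p = 0.00893 and 0.0198). The wild type rise was thus smaller by over 1.5 times without replicate 4, and all of these calls remained. When only the 8 arrays of a comparison were fitted, the wild type rise was not called (adjusted p = 0.0891 and 0.104), whereas the genotype difference after challenge was.

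Creld2, an ER protein of the disulfide exchange machinery that is released under ER stress, was lowest in the challenged knockout. Probe ILMN_2757368 read 470.3, 464, 505 and 377 in untreated and 342, 271, 269 and 291 in challenged knockout mice, with no overlap. In wild type mice it read 435, 586, 461 and 592 untreated and 461, 361, 461 and 561 challenged, with wide overlap. With challenge it fell by 0.63 ± 0.15 in the knockout, or 1.55-fold (limma, adjusted p = 0.0084), against -0.17 ± 0.15 in the wild type (adjusted p = 0.38). After challenge the difference of knockout from wild type was -0.64 ± 0.15 (adjusted p = 0.00394). The second probe, ILMN_2983948, fell by 0.59 ± 0.16 in the knockout (adjusted p = 0.0202) and differed by -0.58 ± 0.16 from the wild type after challenge (adjusted p = 0.0115). It read 533, 391, 632 and 613 in challenged wild type and 413, 369, 288 and 371 in challenged knockout mice, where the knockout maximum passed the wild type minimum. That genotype call was lost with array weights, at -0.38 (adjusted p = 0.0916), and with the 8 arrays of the comparison alone (adjusted p = 0.0588). Its knockout call was lost without knockout replicates 1 or 3 untreated or replicate 3 challenged (adjusted p up to 0.0693), and cyclic loess normalization ended the knockout call on both probes, at -0.59 (adjusted p = 0.0564) and -0.56 (adjusted p = 0.0657). The interaction did not pass for Creld2, at -0.46 ± 0.21 and -0.49 ± 0.23 (adjusted p = 0.148 and 0.153), and the 95% intervals were -0.91 to -0.01 and -0.98 to -0.0032. Creld2 probes correlated at r = 0.934 over the 16 arrays.

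Pdia6, a protein disulfide isomerase that also dampens IRE1 signalling, fell with challenge in both genotypes. It read 219, 272, 256 and 244 in untreated and 177, 181, 186 and 184 in challenged wild type mice. In the knockout it read 239, 203, 246 and 206 untreated and 163, 186, 153 and 176 challenged. The untreated and challenged ranges did not overlap in either genotype, and the challenged wild type mice, replicate 4 included, were close together. The fall was 0.44 ± 0.10 in the wild type (adjusted p = 0.00555) and 0.40 ± 0.10 in the knockout (adjusted p = 0.0126). Both calls held in all 16 fits without 1 array (adjusted p up to 0.0216 and 0.0496). Cyclic loess left falls of 0.20 and 0.35 that were not called (adjusted p = 0.329 and 0.138). The interaction was 0.04 ± 0.14, with a 95% interval of -0.26 to 0.34.

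Pdia4, another disulfide isomerase of the ER lumen, was not called in any comparison. It read 376, 347, 335 and 462 in untreated and 415, 264, 507 and 125 in challenged wild type mice, where replicate 4 lay far below the other 3. In the knockout it read 316, 346, 369.8 and 341 untreated and 382, 367, 319 and 333 challenged, with nearly equal ranges. The challenge difference in the wild type was -0.39 ± 0.30 (95% interval -1.02 to 0.25) and 0.02 ± 0.17 without replicate 4. In the knockout it was 0.03 ± 0.30 (95% interval -0.60 to 0.66).

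Hspa5 encodes BiP, the main HSP70 chaperone of the ER, which also holds the stress sensors inactive. It read 162, 169, 172 and 215 in untreated wild type and 200.1, 192, 197 and 144 in untreated knockout mice. After challenge it read 157, 119, 216 and 86.1 in the wild type and 202, 208, 198 and 276 in the knockout. The challenged wild type mice spread more widely than any other group, from close to the 40th percentile in replicate 4 to the level of the knockout in replicate 3. The knockout lay 0.68 ± 0.22 above the wild type after challenge, or 1.6-fold (adjusted p = 0.0218), although the groups overlapped and 13 of 16 pairs of arrays were higher. The call was lost without challenged wild type replicate 4 (0.46 ± 0.18, adjusted p = 0.0513) and without challenged knockout replicate 4 (adjusted p = 0.0681). Challenge itself was not called in either genotype with all arrays, at -0.39 ± 0.22 in the wild type (95% interval -0.85 to 0.08) and 0.27 ± 0.22 in the knockout (95% interval -0.20 to 0.74). Without challenged wild type replicate 3 the wild type difference was -0.61 and was called (adjusted p = 0.0226).

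Hyou1 encodes a large ER chaperone that exchanges nucleotide on BiP, and its probe was dim. It read 78.3, 81.3, 87.8 and 104 in untreated wild type mice, close to the 40th percentile of the arrays. In untreated knockout mice it read 96.3, 89.7, 94.4 and 74.7. After challenge it read 68, 81.2, 90.8 and 77.7 in the wild type and 97.1, 98.9, 99.8 and 96.9 in the knockout, with no overlap between the genotypes. The knockout was higher by 0.31 ± 0.12 (adjusted p = 0.0407), a call that remained in 8 of 16 fits without 1 array. It was lost without challenged wild type replicates 1 or 4, any challenged knockout array, untreated wild type replicate 3 or untreated knockout replicate 2 (adjusted p up to 0.116). Array weights, the 8 arrays of the comparison alone and the replicate number as a block ended it too (adjusted p up to 0.089). The challenge effect was -0.14 ± 0.12 in the wild type and 0.15 ± 0.12 in the knockout, neither called, although the knockout groups did not overlap.

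Dnajb9 encodes ERdj4, a BiP cochaperone that represses IRE1 and assists degradation. Probe ILMN_2829636 read 839.6, 857, 704 and 784 in untreated and 715, 647, 681 and 230.5 in challenged wild type mice. In the knockout it read 865, 669.7, 725 and 779 untreated and 585, 536, 377 and 463 challenged, with no overlap. With all arrays the knockout difference of -0.65 ± 0.27 was not called (adjusted p = 0.126). Without challenged wild type replicate 4, whose value lay far below the others, the SE was smaller: the difference was -0.65 ± 0.13 and called (adjusted p = 0.00102), and the difference of knockout from wild type after challenge was -0.49 ± 0.14 (adjusted p = 0.00881). With all arrays that genotype difference was -0.10 ± 0.27 and not called (adjusted p = 0.774). The wild type challenge difference was -0.61 ± 0.27 with and -0.22 ± 0.14 without that array (adjusted p = 0.0988 and 0.232).

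Herpud1, a membrane protein that assembles the ER degradation complex, was not called in any comparison. Probe ILMN_2790241 read 2649, 3175, 2709 and 2649 in untreated wild type and 3159, 3069, 3079 and 2909 in untreated knockout mice. After challenge it read 2863, 2844, 2446 and 2410.3 in the wild type and 3022, 3665, 3197 and 2807 in the knockout, and only the challenged wild type and untreated knockout ranges did not overlap. Its largest difference was 0.26 ± 0.11 for knockout against wild type after challenge (adjusted p = 0.0532), which was called in 4 of 16 fits without 1 array and after cyclic loess (adjusted p = 0.0283). The second probe, ILMN_2790246, gave 0.13 ± 0.09 there (adjusted p = 0.247), and its challenge differences had 95% intervals of -0.28 to 0.09 in the wild type and -0.16 to 0.21 in the knockout.

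Sec61b encodes the beta subunit of the Sec61 channel, and its probes differed in sign with challenge in the wild type. In the wild type, challenge moved ILMN_2609807 by 0.21 ± 0.11 and ILMN_2609809 by -0.27 ± 0.23, neither called (adjusted p = 0.164 and 0.382). Cyclic loess gave 0.44 for the former, which was then called (adjusted p = 0.0365), and without challenged wild type replicate 3 the latter stood at -0.53 and was called (adjusted p = 0.0362). ILMN_2609809 read 88.5, 164, 219 and 83 in challenged wild type and 169, 177, 169.9 and 168 in challenged knockout mice, so that the wild type replicates fell on both sides of the narrow knockout range. Its challenge difference in the knockout was 0.23 ± 0.23 without overlap of the groups, and that of ILMN_2609807 was 0.10 ± 0.11 with overlap (adjusted p = 0.554 and 0.579). Without challenged wild type replicate 4 the wild type challenge difference was 0.23 ± 0.12 for ILMN_2609807 and -0.06 ± 0.20 for ILMN_2609809. Neither was called (adjusted p = 0.157 and 0.849). The correlation between the probes was r = 0.432 over the 16 arrays, and 0.746 after group means were taken out.

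The counts of called member probes are given beside those of all tested probes. With challenge in the wild type, 2 of 13 probes rose and 1 fell, while 29.4% of all tested probes were called, 11.7% higher and 17.7% lower. With challenge in the knockout, 0 rose (4 of the 13 passed an unadjusted p of 0.05 in either direction, against 29.3% of all probes) and 3 fell, against 9.1% and 7.48% of all probes and 16.6% in either direction. Without challenged wild type replicate 4 the knockout count was 4 of 13, against 30.5% of all probes. In untreated mice 0 of 13 differed between the genotypes in limma, at either the adjusted threshold or an unadjusted p of 0.05, and 0.0168% of all probes were called (0.00561% higher and 0.0112% lower). After challenge, 2 probes were higher and 4 lower in the knockout, against 21.1% and 23.1% of all probes and 44.2% in either direction. The lower probes were those of Ddit3 and Creld2. With 1 probe per gene, 2 of 9 genes were higher and 2 lower, against 20.4% and 24.3% of all genes. Without challenged wild type replicate 4, 0 probes were higher and 5 lower, against 19.5% and 21.7% of all probes. In the interaction 0 rose (4 of the 13 passed an unadjusted p of 0.05 in either direction, against 32.1% of all probes) and 2 fell, against 5.67% and 3.67% of all probes and 9.33% in either direction. Of the probes called in the interaction over the whole array, 60.7% were higher, and 71.9% after cyclic loess. Groups did not overlap, with challenge in the wild type, for 2 probes that were higher and 1 lower, against 10.4% and 15.7% of all probes, and in the knockout for 2 and 4, against 14.7% and 18.6%. Between the genotypes this held for 0 and 0 probes in untreated mice, against 2.17% and 2.09%, and for 1 and 3 after challenge, against 15.8% and 18.6%. The genotype comparison after challenge uses the same challenged wild type arrays as the challenge comparison in that genotype, so that the signs of these differences are not independent.

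Over 1 probe per gene, the median challenge difference of the 9 genes was -0.14 in the wild type and 0.03 in the knockout, beside 0.05 and -0.05 over 12648 genes. The members went in different directions: in the wild type the CHOP gene rose while the isomerase Pdia6 fell, and the chaperone genes Hspa5, Hyou1 and Pdia4 were not called.

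**Figure D2:**
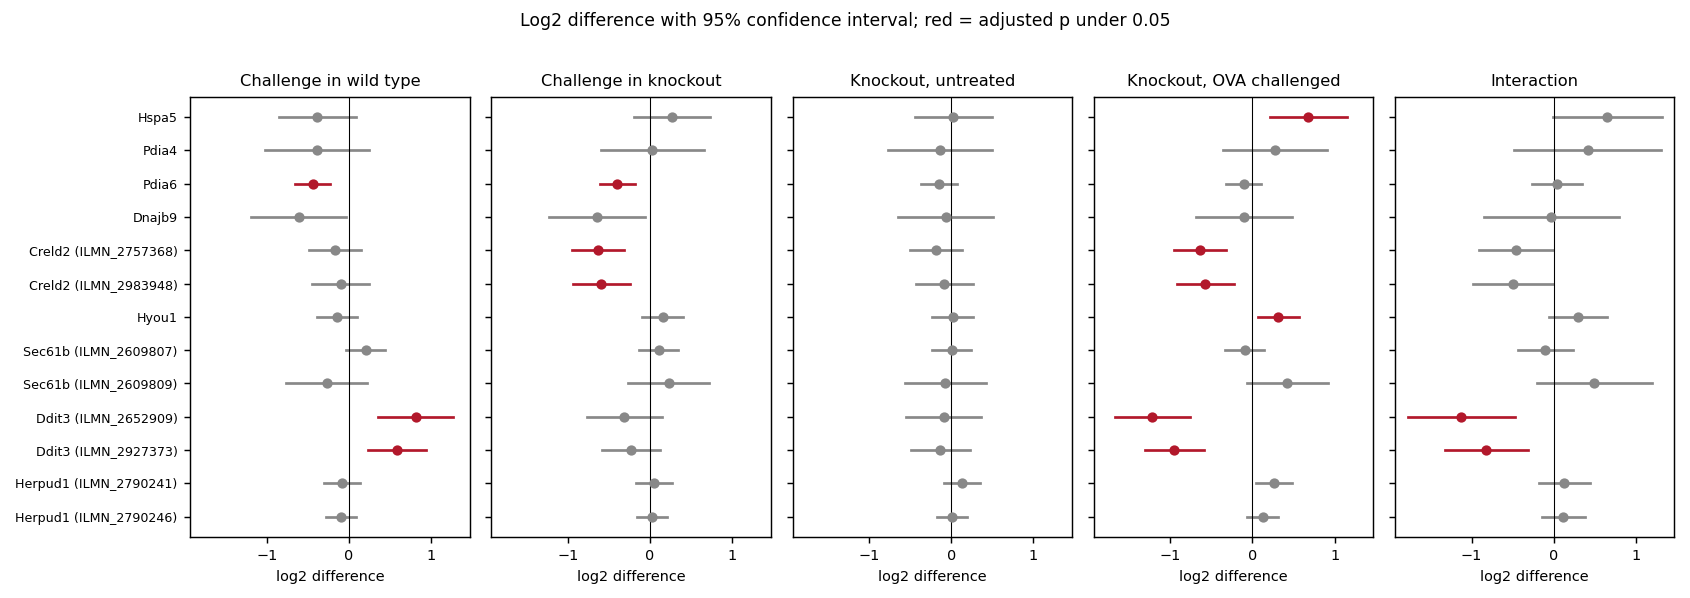
Log2 difference of each tested probe with its 95% confidence interval in the 5 comparisons; red marks an adjusted p under 0.05. In untreated mice all 13 intervals include 0, and after challenge the 2 Ddit3 probes lie furthest below 0 for knockout against wild type.

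Other genes of the secretory pathway were counted from lists, 1 probe per gene. Over all 12648 genes counted that way, 13.4% were called higher and 17.4% lower with challenge in the wild type, and 45% passed an unadjusted p of 0.05. In the knockout these shares were 10.2%, 7.88% and 30.8%. For knockout against wild type after challenge, 20.4% were higher and 24.3% lower, and in the interaction 32.4% passed an unadjusted p of 0.05. With challenge in the wild type, other chaperones of the ER lumen had the lowest median of the 7 other pathway lists. Of 17 tested, 0 rose and 6 fell (35.3%), with a median of -0.27. At an unadjusted p of 0.05, 8 passed. The collagen chaperone Serpinh1 fell by 1.51 ± 0.25 (adjusted p = 0.000593), the prolyl isomerase Fkbp14 by 1.05 ± 0.27 and the BiP cochaperone Dnajc3 by 0.96 ± 0.31 (adjusted p = 0.00979 and 0.0297). Calr, which binds sugars on folding glycoproteins, fell by 0.62 ± 0.14 and Hsp90b1, the ER member of the HSP90 family, by 0.37 ± 0.13 (adjusted p = 0.00535 and 0.0421). Between 4 and 9 of these genes fell in fits without 1 array, and 1 rose without challenged wild type replicate 3 or 4. In the knockout, Cdnf rose by 0.32 ± 0.10 and Fkbp9 fell by 0.69 ± 0.18 (adjusted p = 0.0385 and 0.014). The rise was lost without untreated wild type replicate 1, any untreated knockout array or challenged knockout replicates 1 or 4. The interaction called 0 of the 17 in limma, while 4 passed an unadjusted p of 0.05. After challenge, 5 were higher in the knockout than in the wild type and 0 lower (29.4% and 0%). Among them was Serpinh1 at 0.98 ± 0.25 (adjusted p = 0.00651). The other pathway lists had calls in both directions in that comparison.

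Disulfide enzymes other than the members went both ways. In the wild type 4 of 13 rose and 2 fell with challenge (30.8% and 15.4%). Pdia3, the isomerase that works with calreticulin, fell by 1.03 ± 0.23, Txndc11 rose by 0.83 ± 0.23 and Erp29 by 0.69 ± 0.12 (adjusted p = 0.00492, 0.0168 and 0.00121). In the knockout 2 rose and 0 fell, Erp29 by 0.90 ± 0.12 and Txndc5 by 0.44 ± 0.14 (adjusted p = 0.000228 and 0.0498). The number that rose in the wild type dropped to 2 without untreated replicates 1, 2 or 4 or challenged replicates 1 or 4 of that genotype and to 1 without untreated replicate 3. In the knockout the count of rises was 1 in 10 of the 16 fits without 1 array, and 3 rose and 4 fell without challenged wild type replicate 4. In the interaction 1 gene of the list was called higher and 1 lower, the latter Txndc11 at -1.34 ± 0.33 (adjusted p = 0.0277). These shares were 7.69% each, beside 5.46% and 3.87% of all genes. For knockout against wild type after challenge, 3 were higher and 2 lower (23.1% and 15.4%, beside 20.4% and 24.3% of all genes).

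Genes of ER-associated degradation fell in 6 and rose in 2 of 20 cases with challenge in the wild type (30% and 10%). Os9, a lectin that selects misfolded glycoproteins, fell by 1.03 ± 0.37, Faf2 by 0.82 ± 0.28 and Selenok by 0.75 ± 0.24 (adjusted p = 0.0457, 0.0369 and 0.0301). The 6 falls became 2 when any of the 4 untreated wild type arrays was left out. In the knockout 0 rose and 2 fell, and 3 rose and 5 fell without challenged wild type replicate 4. At an unadjusted p of 0.05, 6 passed in the knockout. Aup1 fell by 0.90 ± 0.11 there (adjusted p = 8.93e-05). Among the other translocon, signal peptidase and glycosylation genes, 4 of 28 rose and 3 fell in the wild type (14.3% and 10.7%) and 3 rose and 3 fell in the knockout. Sec63, which couples BiP to the channel, fell by 0.76 ± 0.21 in the wild type (adjusted p = 0.0158), and the signal peptidase subunit Sec11c rose by 1.16 ± 0.37 in the knockout (adjusted p = 0.0434). In the wild type the count of rises was 9 without challenged replicate 4, 1 without untreated replicate 1, and 2 without untreated wild type replicate 4, untreated knockout replicate 3 or challenged wild type replicates 1 or 3. The falls were 6 without challenged wild type replicate 3. Without challenged wild type replicate 4, 7 rose and 6 fell in the knockout. Without challenged knockout replicate 4, 0 rose in the knockout. For knockout against wild type after challenge, 6 degradation genes were higher and 6 lower (30% each, beside 20.4% and 24.3% of all genes). Of the 28 translocon, signal peptidase and glycosylation genes, 4 were higher and 3 lower (14.3% and 10.7%). In the interaction 2 degradation genes were called higher and 0 lower, and 2 of the 28 higher and 1 lower. The interaction shares over all genes were 5.46% and 3.87%.

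Of 11 tested sensors and factors of the response, 1 rose and 2 fell in the wild type (9.09% and 18.2%, beside 13.4% and 17.4% of all genes), and 1 rose and 0 fell in the knockout, where 4 passed an unadjusted p of 0.05. The gene that rose in both was Ern2, the IRE1 paralog of mucous epithelia, at 1.23 ± 0.29 and 1.67 ± 0.29 (adjusted p = 0.0068 and 0.00109). Ern2 is also on the goblet cell list, of whose 13 tested genes 9 rose in the wild type and 11 in the knockout. Nfe2l2, which encodes NRF2, fell by 0.73 ± 0.15 in the wild type (adjusted p = 0.00252), and Creb3 by 0.60 ± 0.22 (adjusted p = 0.0488). Of these 2 falls, 1 was left in 14 of the 16 fits without 1 array. Atf4 and Xbp1 were not called in either genotype, at -0.35 ± 0.23 and -0.29 ± 0.17 in the wild type and -0.49 ± 0.23 and -0.39 ± 0.17 in the knockout. Without challenged wild type replicate 4, 2 of the list rose and 3 fell in the knockout. For knockout against wild type after challenge, 1 was higher and 1 lower (9.09% each, beside 20.4% and 24.3% of all genes).

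Of 20 tested genes downstream of ATF4 and CHOP, 4 rose and 3 fell with challenge in the wild type. These shares were 20% and 15%, beside 13.4% and 17.4% of all genes. The highest difference of the list there was 0.49, so that the 4 rises, not named here, were smaller than the 3 falls named next. In the knockout 1 rose and 2 fell (5% and 10%, beside 10.2% and 7.88% of all genes). Asns, the asparagine synthetase that ATF4 induces, fell in both genotypes, by 1.08 ± 0.15 and 0.86 ± 0.15 (adjusted p = 0.000205 and 0.00123). Wars fell by 0.71 ± 0.20 and Vldlr by 0.64 ± 0.14 in the wild type (adjusted p = 0.0181 and 0.00443), and the amino acid transporter Slc7a5 rose by 0.77 ± 0.12 in the knockout (adjusted p = 0.000515). Trib3, a target of CHOP, stood at -0.15 ± 0.11 and 0.07 ± 0.11 and was not called, nor was the stress phosphatase subunit Ppp1r15a at -0.08 ± 0.11 and -0.19 ± 0.11. The 4 rises in the wild type became 0 without untreated replicates 1 or 2, 1 without untreated replicate 3 and 2 without untreated replicate 4 or challenged replicates 1 or 4. In the knockout 3 rose without challenged wild type replicate 4. For knockout against wild type after challenge, 6 of the 20 were higher, 2 lower and 12 not called (30% and 10%, beside 20.4% and 24.3% of all genes). The 2 lower became 0 without challenged knockout replicate 4 and 1 without any other challenged knockout array, untreated replicate 3 of either genotype or challenged wild type replicate 1. The cytosolic and mitochondrial heat shock list counted 1 rise and 2 falls among 19 genes in the wild type and 2 of each in the knockout, with the mitochondrial chaperonin Hspe1 at 0.95 ± 0.22 and 0.82 ± 0.22. Between the genotypes after challenge, 3 of these 19 were higher in the knockout and 2 lower (15.8% and 10.5%).

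**Figure D3:**
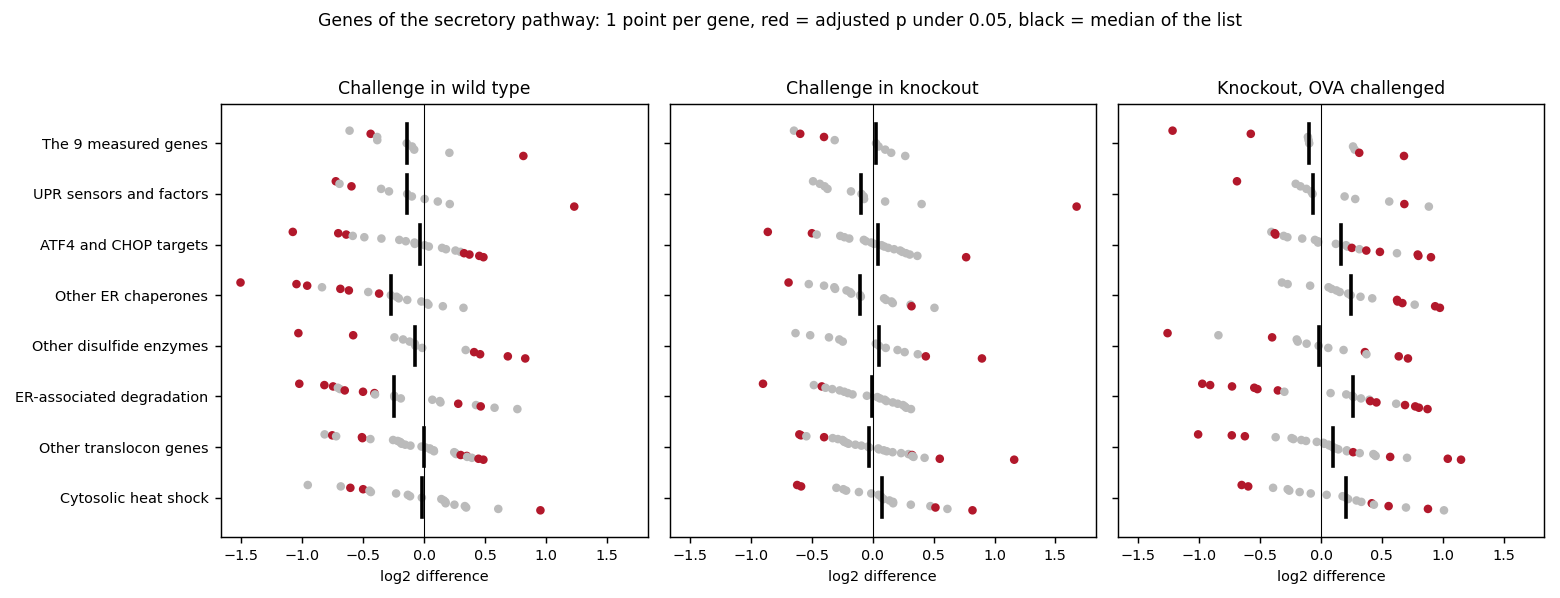
Log2 differences of the genes of 8 lists (1 point per gene, the brightest probe) for challenge in each genotype and for knockout against wild type after challenge; red marks an adjusted p under 0.05 and the black bar the median of the list. Other ER chaperones have a median of -0.27 with challenge in the wild type and 0.24 for knockout against wild type after challenge.

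Across the 16 arrays the members had unlike correlations with Hspa5. Pearson's r with Hspa5 was 0.753 for Pdia4 and 0.695 for Hyou1, 0.655 and -0.23 for the probes of Sec61b, and -0.73 for each Ddit3 probe. Without challenged wild type replicate 4 it was 0.403 for Pdia4, 0.740 for Hyou1 and -0.42 and -0.45 for Ddit3. By Pearson's r over all 16 arrays, the genes most like Hspa5 among 12647 were N4bp2l1 (r = 0.889), Gtf2h4 (0.886), Borcs5 (0.878), Lsm3 (0.868) and Fip1l1 (0.867). None of them is a member. On the 15 arrays without challenged wild type replicate 4 their r was between 0.739 and 0.792, and their ranks were 10, 12, 24, 7 and 3. Hyou1, at 0.740 there, lay within that range. Spearman's rho with Hspa5 over the 16 arrays was 0.841 for Hyou1 and 0.394 for Pdia4, against 0.653 to 0.747 for the listed genes. These values describe 16 arrays that fall into 4 groups and share 1 normalization.

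**Figure D4:**
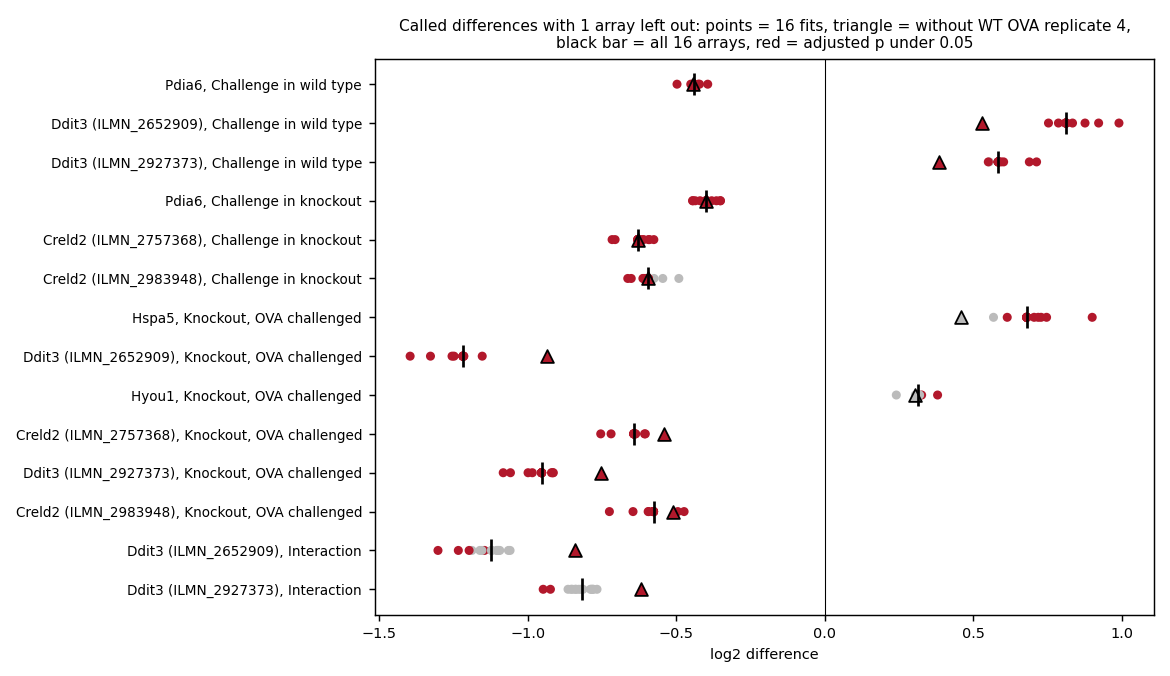
The 14 called differences of member probes (black bar) and their values in 16 fits that each leave out 1 array (points; triangle without challenged wild type replicate 4); red marks an adjusted p under 0.05. All values keep their side of 0. The triangle is closest to 0 for the Ddit3 rows, for Hspa5 and for Creld2 (ILMN_2757368) in knockout against wild type after challenge.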

How the data were processed

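Total RNA of 16 lungs had been labelled with biotin and hybridised to Illumina bead arrays. The authors deposited a linear intensity for each probe, made with GenomeStudio 2011.1 per the submitters' processing notes. Normalization and background treatment are not given in the sources used here. The sorted columns were nearly identical between arrays, differing at most by 4.9 at a rank with a median of 242.8, so no further normalization was applied. Values under 16 were raised to 16 (1123 of 411152) before log2 was taken. A probe was tested if it passed its array's 40th percentile on 4 arrays or more, which kept 17810 of 25697. Gene symbols came from the platform annotation: 23978 probes had 1 symbol, 0 had several and 1719 had none here. Of 275 list entries, 274 were matched to a gene identifier.

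All 16 arrays were fitted with a mean per group in limma 3.58.1 (R 4.3.3; lmFit, eBayes), with 5 contrasts and Benjamini-Hochberg adjustment over all probes. The labels give each array its own mouse. The number of arrays limits the precision. Every member probe is named. For each other list, up to 3 called genes with the largest difference per challenge contrast are named, and for likeness to Hspa5 the 5 genes with the highest Pearson r. Genes outside that rule (Atf4, Xbp1, Calr, Hsp90b1, Trib3, Ppp1r15a, and any list gene in the genotype or interaction contrasts) were chosen after their values were seen. Members and lists were chosen with earlier results of these data known. Alternatives covered the floor, normalization, filter, moderation, array weights, the arrays of a comparison alone, 1 probe per gene, the replicate number as a block and leaving out each array.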

Additional observations from a re-analysis of the deposited data

Results flagged for a closer look

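The interaction term of limma was called for Ddit3 with all arrays: -1.12 for ILMN_2652909 and -0.82 for ILMN_2927373 (log2; knockout challenge effect less the wild type one). The calls were lost in 11 and 13 of 16 fits without 1 array, and both after cyclic loess, where the estimates were -1.31 and -1.02 (adjusted p = 0.0698 and 0.0906).

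In 6 of 56 groups of 4 log2 values, 1 mouse lay far from the other 3; chance sets apart about 1 group in 20. Dnajb9 (ILMN_2829636) stood at 7.85 in challenged wild type replicate 4, against 9.34 to 9.48 in the other 3 mice. Hspa5 stood at 7.17 in untreated knockout replicate 4 (others 7.59 to 7.64) and at 8.11 in challenged knockout replicate 4 (others 7.63 to 7.70). Ddit3 (ILMN_2652909) stood at 7.76 in untreated knockout replicate 1 (others 8.04 to 8.07). Herpud1 (ILMN_2790241) stood at 11.63 in untreated wild type replicate 2 (others 11.37 to 11.40). The untested Dnajb9 probe ILMN_1248003 stood at 5.41 in untreated wild type replicate 4 (others 5.67 to 5.69).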

How the results depend on the processing

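No called member difference changed sign in any alternative run. The count of called member probes was 3 for challenge in the wild type, 3 for challenge in the knockout, 0 for genotype in untreated mice, 6 for genotype after challenge and 2 for the interaction. With the arrays of a comparison alone it was 1, 5, 0 and 3 in the first 4 of these. Cyclic loess gave 0 for challenge in the knockout and 0 for the interaction (where the Ddit3 estimates were larger, at -1.31 and -1.02), and arrayWeights gave 5 for challenge in the knockout. The interaction count was 1 with no filter, 1 with trend and robust moderation and 1 with 1 probe per gene. The cause of these changes was not tested, apart from the fewer probes tested in the last. Without 1 array the counts ranged from 2 to 5 (the highest without challenged wild type replicate 3), 2 to 4, 0 to 0, 5 to 7 and 0 to 4 in the same order.

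Over all probes the called counts of 5244, 2954, 3, 7879 and 1662 ranged without 1 array from 3256 to 6903, 2095 to 5424, 1 to 4, 6389 to 8715 and 410 to 3611, and in the other alternatives from 2084 to 5416, 2312 to 7048, 1 to 24, 3336 to 9876 and 1113 to 3665. With the replicate number as a block, the member counts were 3, 3, 0, 6 and 2, and Hyou1 lost and Herpud1 gained its call after challenge. Deviations of same-numbered arrays from their group means correlated above 0.1 in 6 of 24 pairs (median 0.0114, highest 0.319). Pairs with unlike numbers were not summarised beside them, so whether a number marks anything shared cannot be told. Low signal over background, as for the Hyou1 probe, limits what a small difference can show.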
